A study of Saccharomyces cerevisiae with 24 samples.

Results

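The Mediator kinase module was followed at the transcript level through its 4 subunit genes in Saccharomyces cerevisiae. The genes were SSN3 (YPL042C), which encodes the cyclin-dependent kinase Cdk8, SSN8 (YNL025C), which encodes its partner cyclin C, SRB8 (YCR081W), which encodes Med12, and SSN2 (YDR443C), which encodes Med13. They were chosen by name as the complete module and made up 4 of the 6388 gene probes on the arrays, with 1 probe per gene printed as 2 spots. All 4 were measured, and all 4 entered every test.

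Mediator carries signals from DNA-bound regulators to RNA polymerase II (RNAPII), and its core is built from a head, a middle and a tail. The kinase module joins this core reversibly, and while it is bound the core is kept from engaging RNAPII. The module was found in yeast both through suppressors of growth defects caused by a short C-terminal domain (CTD) of the largest RNAPII subunit, hence the SRB names, and through suppressors of snf1 mutations in glucose repression, hence the SSN names. Cdk8 phosphorylates the CTD and several transcription factors, cyclin C activates it, Med12 binds the pair, and Med13 is the link to the core.

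The mRNA of 9 strain groups was compared on 24 two-colour arrays, each against a single pool of RNA from a wild type culture. All strains were labelled BY4742, an alpha mating type laboratory strain, and were collected in mid-log growth in synthetic complete medium with glucose at 30C. The wild type group (wt) held 8 arrays with 3 culture labels, and every other group held 2 arrays, in opposite dye orientations. A further wild type group, wt-330rpm, was labelled as shaken at 330 rpm, against the 230 rpm of the common growth description. RPB1-CTDWT carried the full 26 heptapeptide repeats with the same drug marker placed behind the gene, whereas 20 repeats were kept in rpb1-CTD20, 13 in rpb1-CTD13, 12 in rpb1-CTD12 and 11 in rpb1-CTD11, each by a stop codon and the marker inserted at the chromosomal RPB1 locus. The last groups, rpb1-CTD12_cdk8del and rpb1-CTD11_cdk8del, combined 12 or 11 repeats with deletion of SSN3, which the labels call cdk8. A strain lacking SSN3 with a full CTD is not analysed here, so the deletion was read only on a shortened CTD. The methods describe 2 sets of strains with different markers, and which of them was used for each array is not given in the sources used here.

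Over the 24 arrays the median sample signal ranged from 314 to 1185 units, and 86.1% to 98.6% of gene probes were above the background threshold, which was percentile 99 of the 904 empty spots of the same array. All 4 alpha cell markers were above it on all 24 arrays, although MF(ALPHA)2, STE3 and SAG1 stood at -2.20 to -1.23 in rpb1-CTD11. Of the a cell markers, STE2 was above it on 24 arrays, MFA1 and BAR1 on 23 and MFA2 on 22. Being above this threshold thus did not separate the mating types. The median wt signal was 4988 to 27350 units for the alpha cell markers and 106 to 240 units for the a cell markers. BY4742 is known to lack LYS2 and to keep MET17, but the fitted LYS2 level was 2.52 to 3.12 in the 6 strains with a shortened CTD and -0.093 to 0.080 in the other groups, and MET17 was at -4.90 in rpb1-CTD20, -4.51 in rpb1-CTD13 and -4.70 in rpb1-CTD12, and at 1.07 in rpb1-CTD11. OLI1, a gene of the mitochondrial genome, was at -5.11 in rpb1-CTD12 and -5.10 in rpb1-CTD11 and between -0.46 and 0.52 elsewhere. Of the other 4 mitochondrial genes examined COB was above background on no array and COX3 on 10. COX1, COX2 and COX3 were between -0.28 and -0.047 in these same strains, and at 0.205, 0.022 and 0.142 in wt. COX1 differed from wt by -0.49 in rpb1-CTD11 (limma adjusted p = 2.9e-07) and by -0.48 in rpb1-CTD12 (limma adjusted p = 9.5e-07). These strain differences move with the comparisons of rpb1-CTD12 and rpb1-CTD11 with wt, and those of the double with the single mutants. LYS2 also moves with every comparison of a shortened CTD with wt or wt-330rpm. MET17 differed by 5.76 between rpb1-CTD11 and rpb1-CTD12 and by -5.55 in the difference of the 2 deletion responses. MET17 also differed from wt by -4.59 in rpb1-CTD13 and by -4.99 in rpb1-CTD20. OLI1 differed by -5.28 between rpb1-CTD12 and rpb1-CTD13. It also differed by -0.79 between wt-330rpm and wt (limma adjusted p = 0.0076). Between rpb1-CTD11_cdk8del and wt-330rpm it differed by 0.98 (limma adjusted p = 0.0016). The part of these strain differences in the results below was not tested. RPO21, which encodes the truncated subunit, was at -1.73 to -0.12 in the strains altered at this locus and at 0.22 in wt.

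Levels below are log2 ratios of a strain over the wild type pool, with the part of the dye taken out, and differences are log2 differences between fitted group levels, with standard errors (SE) from a spread shared by all 24 arrays. A difference was taken as past the test at a limma adjusted p under 0.01 over all 6388 gene probes, and a gene was called when its fold change was also over 1.7. In RNA from whole cultures, fewer cells carrying a transcript and less of it per cell cannot be told apart.

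SSN3 was checked first, since it is the gene removed from the double mutants. Its levels in wt ran from 0.014 to 0.14 with a median of 0.091 (n = 8). In rpb1-CTD12_cdk8del they were -1.70 and -1.77, and in rpb1-CTD11_cdk8del -1.52 and -1.84. All 4 arrays of the deletion strains lay far below the other 20 arrays, the lowest of which was at -0.27, so the labels and the targeted gene matched on every array.

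The signal of the SSN3 probe in the sample channel was 51.3 and 66.1 units on the 2 arrays of rpb1-CTD12_cdk8del, against thresholds of 53.8 and 67.7. On the 2 arrays of rpb1-CTD11_cdk8del it was 53.3 and 65.8 units against 54.4 and 67.3. On these 4 arrays the wild type pool in the other channel gave 135 to 325 units, so the probe itself was working. On the other 20 arrays the strain's signal was 120 to 491 units and above the threshold each time. SSN3 transcript was therefore not above background in either deletion strain, and only a bound could be given for its change.

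**Figure D1:**
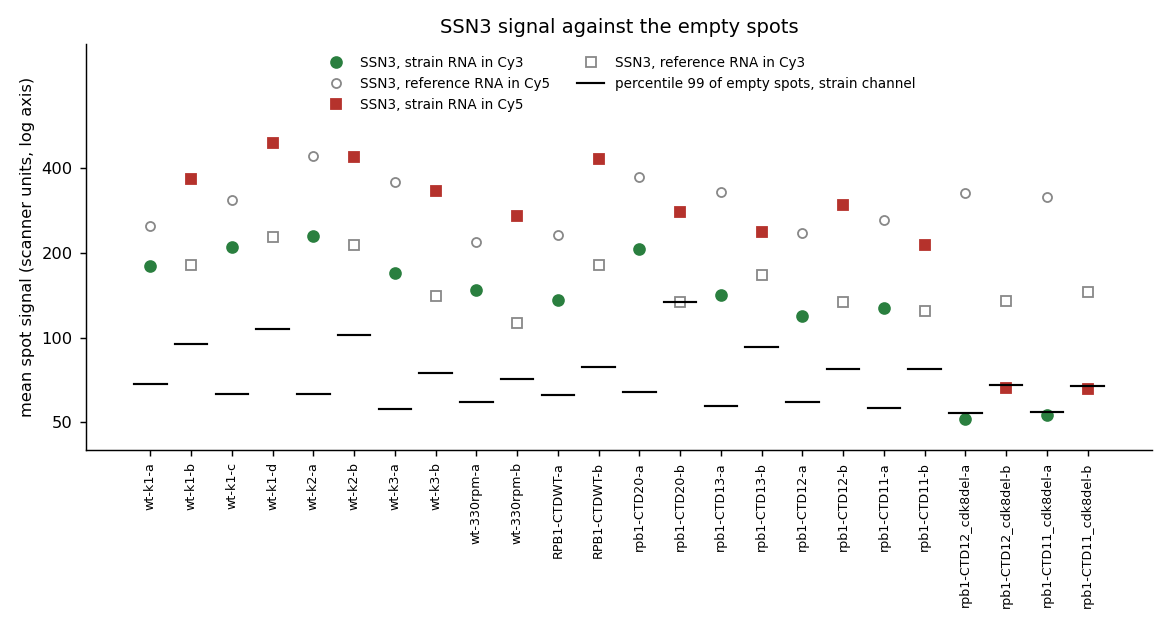
Mean spot signal of the SSN3 probe, before background subtraction, in the strain's channel on each of the 24 arrays (log axis, scanner units), with the array's own background threshold (percentile 99 of the empty spots) and the signal of the wild type pool in the other channel. The 4 arrays of the deletion strains sit just under their thresholds at 51.3 to 66.1 units, while the other 20 lie between 120 and 491.

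Measured against that background, SSN3 was at least 2.48-fold higher in rpb1-CTD11 than in rpb1-CTD11_cdk8del, a bound set on the separate channels after loess and Aquantile normalization. For rpb1-CTD12 over rpb1-CTD12_cdk8del the same calculation gave 3.02, which is above the fold of the fit itself, so that value was not taken as a bound. The fitted differences were -1.44 (SE 0.071, adjusted p = 1e-11) and -1.58 (adjusted p = 8.4e-12). Against wt-330rpm, the bounds were at least 2.90-fold for rpb1-CTD11_cdk8del and at least 3.11-fold for rpb1-CTD12_cdk8del. SSN3 was the 1 module gene called in each of these comparisons, in which 5.48%, 4.16%, 3.68% and 3.18% of all probes were called. With an empty-spot threshold at percentile 95 in place of 99, the probe was above background on all 4 deletion arrays.

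In the strains with 11 or 12 repeats that kept SSN3, the transcript of the kinase was lower by a small amount. SSN3 levels were -0.27 and -0.20 in rpb1-CTD11 and -0.17 and -0.14 in rpb1-CTD12. They were 0.012 and 0.016 in rpb1-CTD13, 0.038 and 0.11 in rpb1-CTD20, and 0.074 and 0.14 in RPB1-CTDWT. Both arrays of rpb1-CTD11 and of rpb1-CTD12 lay below all 8 wt arrays, also within each dye orientation, while rpb1-CTD13, rpb1-CTD20 and RPB1-CTDWT each overlapped the wt range. The same separation from wt held for wt-330rpm, which has a full CTD, at -0.036 and 0.0016.

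Relative to wt, SSN3 was 1.25-fold lower in rpb1-CTD11, with a log2 difference of -0.32 (SE 0.056, 95% confidence interval -0.44 to -0.21, adjusted p = 6.8e-05). In rpb1-CTD12 it was 1.18-fold lower at -0.24 (95% confidence interval -0.36 to -0.12, adjusted p = 0.0017). The differences in rpb1-CTD13, rpb1-CTD20 and RPB1-CTDWT were -0.072, -0.013 and 0.020, with adjusted p of 0.46, 0.95 and 0.95. In rpb1-CTD11 and rpb1-CTD12, OLI1 was also low, which cannot be told apart from CTD length here. Neither fall reached the 1.7-fold threshold, and 23.8% of all probes changed by more than SSN3 did in rpb1-CTD11.

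Both falls passed the test against the marked full-length strain, and neither did against wt-330rpm. From RPB1-CTDWT, SSN3 differed by -0.34 in rpb1-CTD11 (adjusted p = 5e-04) and by -0.26 in rpb1-CTD12 (adjusted p = 0.0065). Against wt-330rpm, in which the SSN3 levels were -0.036 and 0.0016, the differences were -0.22 (adjusted p = 0.016) and -0.14 (adjusted p = 0.16). wt-330rpm itself stood at -0.10 from wt (adjusted p = 0.23). The fall in rpb1-CTD12 no longer passed when the wt arrays were averaged per culture label (adjusted p = 0.014), or without either rpb1-CTD12 array (adjusted p = 0.035 and 0.020). The step from 12 to 11 repeats was -0.084 (adjusted p = 0.49) and that from 13 to 12 repeats -0.17 (adjusted p = 0.070).

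**Figure D2:**
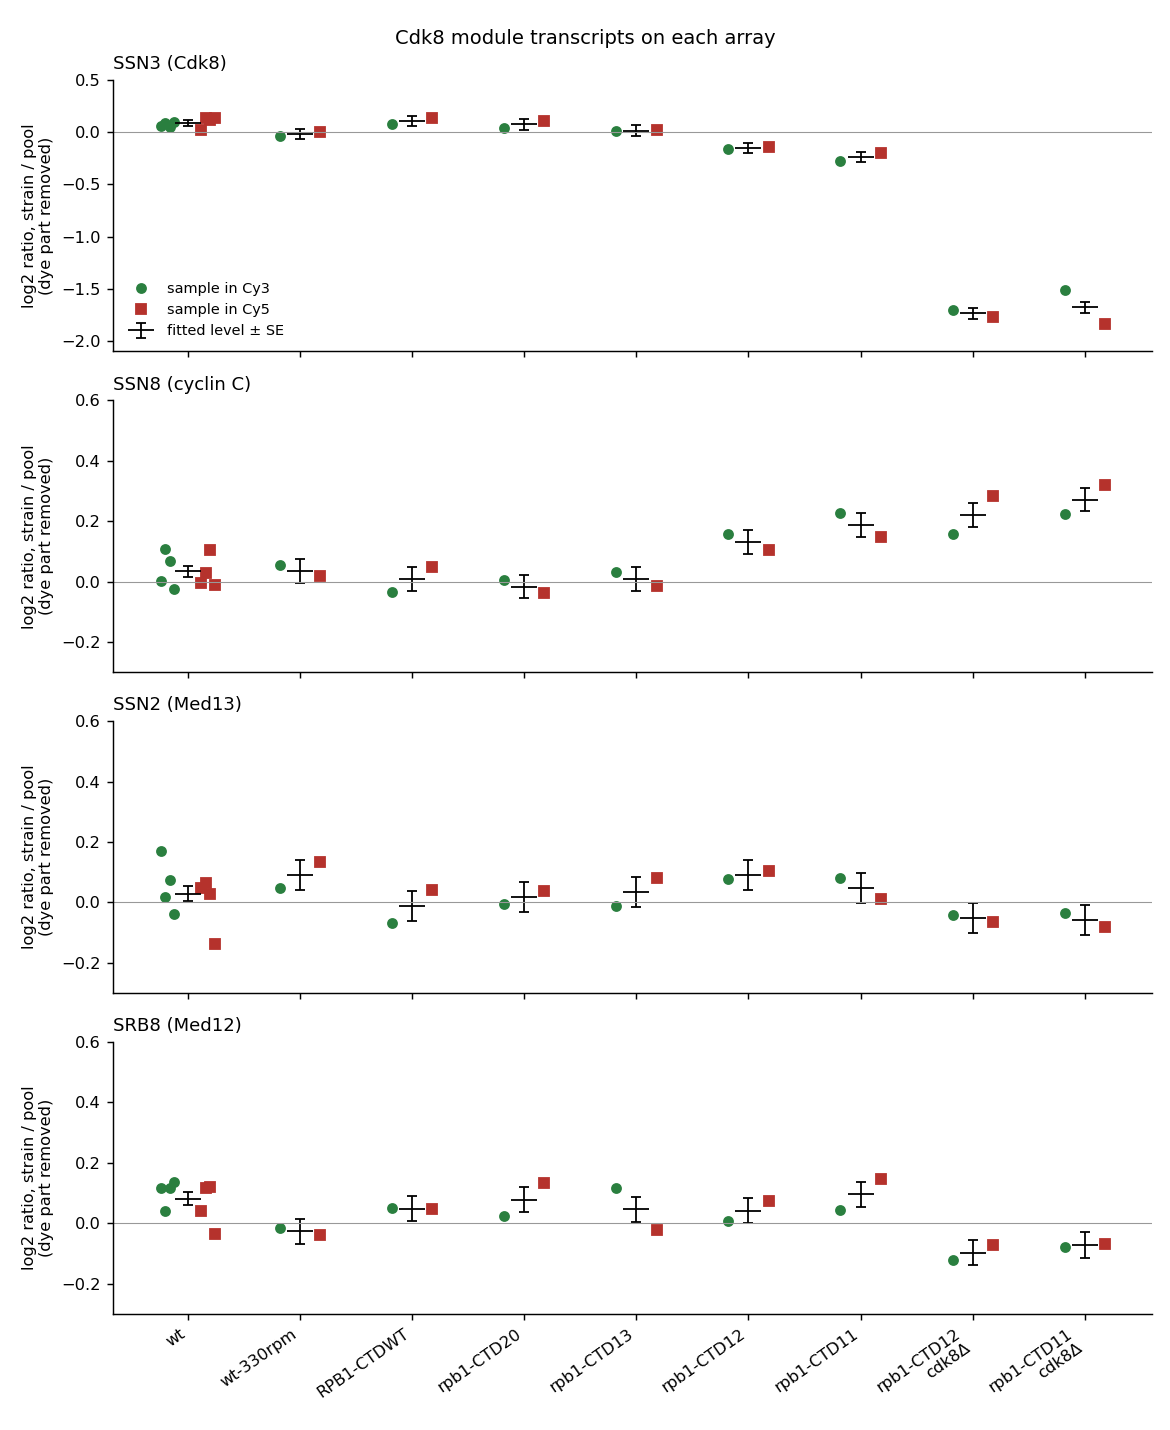
Level of each module gene on each of the 24 arrays, as the log2 ratio of the strain over the wild type pool with the dye part removed. Circles are arrays with the strain in Cy3, squares arrays with the strain in Cy5, and black marks the fitted group levels with their SE. The SSN3 panel has a wider axis than the others. In it the deletion strains lie at -1.84 to -1.52 and rpb1-CTD11 and rpb1-CTD12 just below wt, while the 4 highest fitted SSN8 levels, 0.13 to 0.27, are those of the strains with 11 or 12 repeats.

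SSN8, the cyclin C gene, rose in rpb1-CTD11 against wt, and its difference in rpb1-CTD12 did not pass the test. Its levels in wt ran from -0.025 to 0.11 with a median of 0.015 (n = 8). They were 0.16 and 0.11 in rpb1-CTD12 and 0.23 and 0.15 in rpb1-CTD11. Both rpb1-CTD11 arrays lay above all wt arrays, while the lower of the 2 rpb1-CTD12 arrays fell inside the wt range.

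In the strains without SSN3 the fitted level of the cyclin transcript was the highest of the 9 groups. SSN8 levels were 0.16 and 0.28 in rpb1-CTD12_cdk8del and 0.23 and 0.32 in rpb1-CTD11_cdk8del, so all 4 arrays were above all 8 wt arrays, with OLI1 at -0.037 and 0.52 in these strains. In wt-330rpm they were 0.054 and 0.019, in RPB1-CTDWT -0.033 and 0.048, in rpb1-CTD20 0.0054 and -0.038, and in rpb1-CTD13 0.032 and -0.015. These 4 groups with a complete or less shortened CTD lay within or just below the wt range.

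The rise of SSN8 in rpb1-CTD11 over wt was 1.11-fold, or 0.15 on the log2 scale (SE 0.044, 95% confidence interval 0.057 to 0.25, adjusted p = 0.0058), and 52.1% of all probes changed by more. In rpb1-CTD12 the difference was 0.098 (adjusted p = 0.074). Against RPB1-CTDWT and wt-330rpm the differences in rpb1-CTD11 were 0.18 (adjusted p = 0.011) and 0.15 (adjusted p = 0.034), neither past the test. The rpb1-CTD11 difference from wt also no longer passed without replicate 1 of that strain, without culture label k1 or without k3. Its values with arrays left out ran from 0.11 to 0.20. Nor did it pass when the wt arrays were averaged per culture label (adjusted p = 0.021).

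Of the 4 module genes, 2 passed the test in rpb1-CTD11 against wt, where 49.1% of all probes did, and 1 passed in rpb1-CTD12, where 36% did. None of the 4 passed in rpb1-CTD13 (5.85% of all probes), in rpb1-CTD20 (0.376%) or in RPB1-CTDWT (0.141%) by limma, and none had an unadjusted p under 0.05 in these 3 strains. wt-330rpm against wt gave 0 of 4 past the test (4.46% of all probes), with 1 unadjusted p under 0.05, that of SRB8. No module gene was called in any of these comparisons once the fold threshold was added, where 3.9% of all probes were called in rpb1-CTD11 and 2.25% in rpb1-CTD12.

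Loss of the kinase gene itself left its cyclin transcript without a change past the test. SSN8 in rpb1-CTD11_cdk8del differed from rpb1-CTD11 by 0.085 (SE 0.056, 95% confidence interval -0.032 to 0.20, adjusted p = 0.22). In rpb1-CTD12_cdk8del against rpb1-CTD12 the difference was 0.089 (95% confidence interval -0.028 to 0.21, adjusted p = 0.21). The intervals leave room for a rise of up to about 0.2 on the log2 scale.

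The 2 dye orientations did not give the same SSN8 difference for this step. With the strain in Cy3, it was -0.0012 at 11 repeats and 0.0008 at 12 repeats. With the strain in Cy5, it was 0.17 and 0.18. SSN8 had a dye term of 0.30, against a median size of 0.13 over all probes, and 14.4% of probes had a larger one, compared with terms of 0.17 for SSN3, 0.071 for SRB8 and 0.0014 for SSN2.

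Compared with wild type, SSN8 was higher in both deletion strains. The difference from wt was 0.24 in rpb1-CTD11_cdk8del (adjusted p = 0.00015) and 0.19 in rpb1-CTD12_cdk8del (adjusted p = 0.0013), and each lost the test without replicate 2 of its deletion strain (0.19 with adjusted p = 0.017, and 0.12 with adjusted p = 0.095). Against wt-330rpm it was 0.24 (1.18-fold, adjusted p = 0.0024) and 0.18 (adjusted p = 0.014), so that only the strain with 11 repeats passed there. That difference no longer passed without either wt-330rpm array or without replicate 2 of rpb1-CTD11_cdk8del, with values from 0.18 to 0.29.

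SRB8, the Med12 gene, did not pass the test in any truncated strain that kept SSN3, and had its lowest fitted levels in both deletion strains, which depended on the normalization. Its levels in wt ran from -0.036 to 0.14 with a median of 0.12 (n = 8). They were 0.0077 and 0.075 in rpb1-CTD12 and 0.043 and 0.15 in rpb1-CTD11, against -0.12 and -0.074 in rpb1-CTD12_cdk8del and -0.078 and -0.068 in rpb1-CTD11_cdk8del. All 4 arrays of the deletion strains lay below every wt array and below both arrays of the matching single mutant.

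In the other groups the SRB8 levels were -0.015 and -0.039 in wt-330rpm, 0.050 and 0.046 in RPB1-CTDWT, 0.024 and 0.13 in rpb1-CTD20 and 0.12 and -0.024 in rpb1-CTD13. wt-330rpm was thus the lowest of the groups that keep SSN3 and the nearest to the deletion strains. The differences from wt were 0.014 in rpb1-CTD11 (adjusted p = 0.81), -0.040 in rpb1-CTD12 (adjusted p = 0.51) and -0.11 in wt-330rpm (adjusted p = 0.13).

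Removal of SSN3 was accompanied by an SRB8 difference of -0.17 at 11 repeats (SE 0.060, 95% confidence interval -0.29 to -0.043, adjusted p = 0.025) and of -0.14 at 12 repeats (95% confidence interval -0.26 to -0.014, adjusted p = 0.066), neither past the test. OLI1 and MET17 also differed between the double and single mutants, and their part in this was not tested. Both orientations gave the same sign, at -0.12 and -0.22 for 11 repeats and -0.13 and -0.15 for 12 repeats. With print-tip loess in place of global loess, however, the differences were 0.014 (adjusted p = 0.83) and -0.020 (adjusted p = 0.77). The choice of control and of normalization decided the outcome against wild type. The differences from wt of -0.15 in rpb1-CTD11_cdk8del (adjusted p = 0.0091) and -0.18 in rpb1-CTD12_cdk8del (adjusted p = 0.0031) passed, whereas those from wt-330rpm were -0.046 (adjusted p = 0.58) and -0.071 (adjusted p = 0.38). With print-tip loess those from wt were -0.032 (adjusted p = 0.50) and -0.049 (adjusted p = 0.29), and neither passed without either array of its deletion strain (adjusted p = 0.080 and 0.061 at 11 repeats, 0.064 and 0.016 at 12 repeats) or without culture label k1 (adjusted p = 0.030 and 0.014). At 11 repeats the difference from wt also no longer passed without label k2 (adjusted p = 0.024), or without some single arrays of other groups.

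SSN2, the Med13 gene, stayed within the wild type range in every strain. Its levels in wt had the widest spread of the 4 genes, from -0.14 to 0.17 with a median of 0.039 (n = 8). They were 0.079 and 0.11 in rpb1-CTD12, 0.080 and 0.012 in rpb1-CTD11, -0.041 and -0.063 in rpb1-CTD12_cdk8del and -0.034 and -0.081 in rpb1-CTD11_cdk8del. The deletion strains lay below both arrays of their single mutants, but all 4 arrays overlapped wt.

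In the other groups SSN2 was at 0.047 and 0.13 in wt-330rpm, -0.068 and 0.042 in RPB1-CTDWT, -0.0060 and 0.039 in rpb1-CTD20 and -0.010 and 0.081 in rpb1-CTD13. No comparison of SSN2 with wt, wt-330rpm or RPB1-CTDWT passed the test. The deletion differences were -0.10 at 11 repeats (95% confidence interval -0.25 to 0.044, adjusted p = 0.23) and -0.14 at 12 repeats (95% confidence interval -0.29 to 0.0030, adjusted p = 0.10). Log2 differences down to -0.25 at 11 repeats and -0.29 at 12 repeats were therefore within the error of these arrays.

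**Figure D3:**
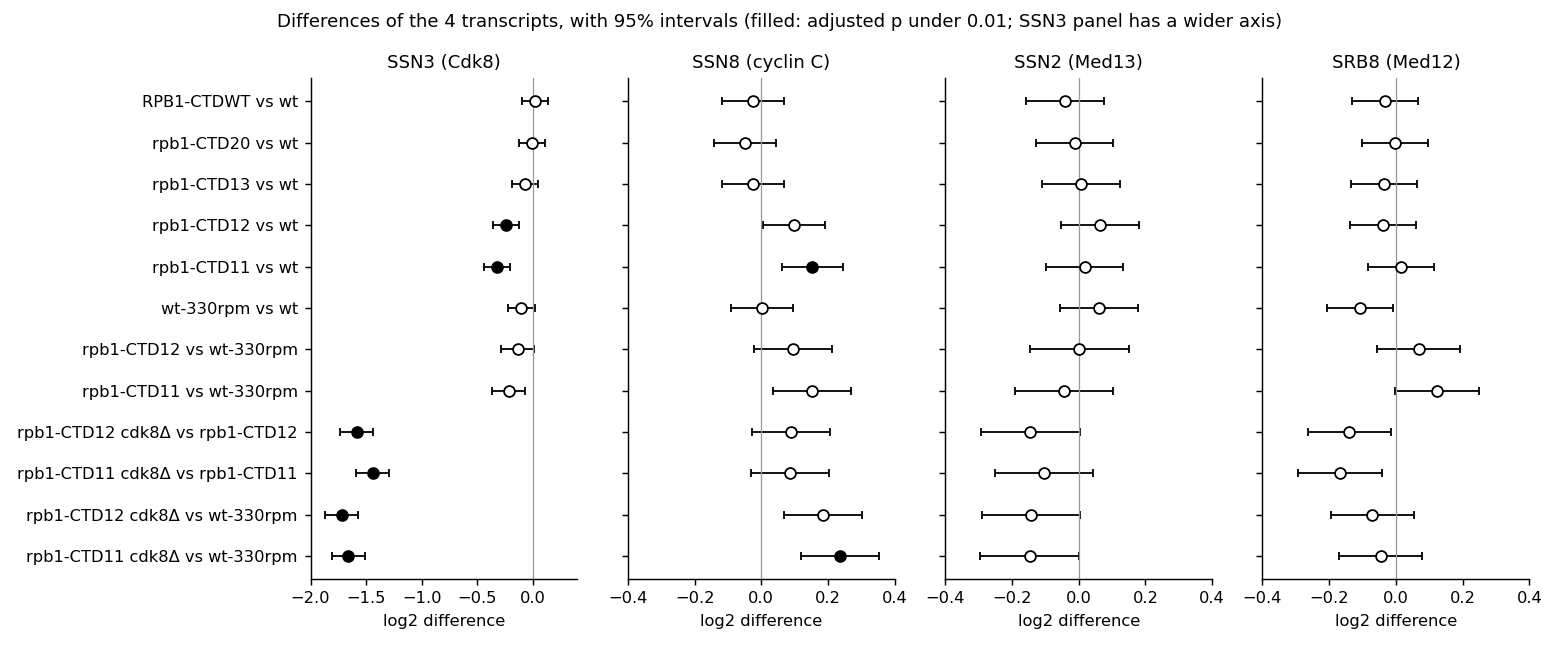
Log2 differences of the 4 module genes in the main comparisons, with 95% confidence intervals from the fit of all 24 arrays. The SSN3 panel has a wider axis. Filled points passed the test. Outside the comparisons with deletion strains the SSN3 differences lie between -0.32 and 0.020. The largest SSN8 difference, 0.24, is that of rpb1-CTD11_cdk8del against wt-330rpm.

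Counted over the module, 1 of 4 genes passed the test in each comparison of a double with its single mutant, which was SSN3 itself, beside 38.6% of all probes at 11 repeats and 32.4% at 12 repeats. Against wt-330rpm, 2 of 4 passed in rpb1-CTD11_cdk8del (28.4% of all probes) and 1 of 4 in rpb1-CTD12_cdk8del (26.8%). Against wt, 3 of 4 passed in each, beside 46.5% and 48.6% of all probes, with SRB8 among them only under some settings. These comparisons share the single mutants or the control arrays and are not independent of each other.

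The responses to the deletion at 11 and at 12 repeats were compared directly. Their difference was -0.0041 for SSN8 (adjusted p = 0.98), 0.041 for SSN2 (adjusted p = 0.86) and -0.029 for SRB8 (adjusted p = 0.89). None of these passed by limma or had an unadjusted p under 0.05, where 2.29% of all probes passed. SSN3 was at background in both deletion strains, so its responses were not compared.

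The differences above are relative to the bulk of all transcripts, since each array was centred on its gene spots. On a scale set by the 14 spiked-in control probes, the median of all probes moved by -0.54 in rpb1-CTD13 against wt, and by 0.16 and 0.23 in the deletion comparisons at 11 and 12 repeats. Between the wild type groups, wt-330rpm against wt, it also moved by 0.30. It moved by -0.28 in rpb1-CTD20, -0.018 in rpb1-CTD11 and -0.0048 in rpb1-CTD12 against wt. SSN3 in rpb1-CTD11 against wt was then at -0.29 (adjusted p = 0.10) and SSN8 at 0.16 (adjusted p = 0.39), both with the same sign as before but not past the test. On that scale the deletion differences at 11 and 12 repeats were -0.0086 and 0.12 for SRB8 and 0.029 and 0.10 for SSN2, so the signs of these genes depended on the scale. Relative to the median of all probes on that scale they were -0.16 and -0.10 for SRB8 and -0.13 and -0.12 for SSN2. Print-tip loess moved that median by 0.0083 and 0.0045 and gave 0.0054 and -0.024 relative to it for SRB8 and -0.035 and -0.084 for SSN2.

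When the 9 groups were put in order of level, the order differed between the genes. For SSN3 both deletion strains were lowest, at background and with no order between them, followed by rpb1-CTD11, rpb1-CTD12, wt-330rpm, rpb1-CTD13, rpb1-CTD20 and wt to RPB1-CTDWT. The step from rpb1-CTD11_cdk8del to rpb1-CTD11 was the 1 step between neighbours past the test, and those above it were 0.013 to 0.14. For SSN8 rpb1-CTD20 was lowest and the 4 strains with 11 or 12 repeats were highest, with rpb1-CTD11_cdk8del at the top. For SRB8 and SSN2 the deletion strains held the lowest places. No step between neighbours passed the test for SSN8, SRB8 or SSN2.

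Across the 9 fitted group levels the SSN3 and SSN8 patterns had a Pearson r of -0.86, SSN3 and SRB8 of 0.85, SSN3 and SSN2 of 0.73, SSN8 and SRB8 of -0.59, SSN8 and SSN2 of -0.44 and SSN2 and SRB8 of 0.52. These are descriptions over 9 groups that share a reference. They include the deletion strains, where SSN3 is at background, and were not calculated without them. Among the groups that keep SSN3, SSN3 was lowest and SSN8 highest in rpb1-CTD11 and rpb1-CTD12.

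The other Mediator subunits were measured through 21 genes of the head, middle and tail. In rpb1-CTD11 against wt, 5 of the 21 rose and 1 fell, or 28.6% past the test beside 49.1% of all probes, with a median difference of 0.075 beside 0.0009 over all probes. In rpb1-CTD12, 2 rose and none fell, and the median was 0.0025. No gene of the 21 passed by limma in rpb1-CTD13, rpb1-CTD20, RPB1-CTDWT or wt-330rpm, where 2, 1, 1 and 4 had an unadjusted p under 0.05. None was called with the 1.7-fold threshold in any of these comparisons or in those with the deletion strains.

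In the middle, NUT2 and MED7 passed the test in both truncated strains and in both deletion comparisons. NUT2, which encodes Med10, rose by 0.31 in rpb1-CTD11 (SE 0.051, adjusted p = 3.7e-05) and by 0.26 in rpb1-CTD12, and fell by 0.26 (adjusted p = 0.0027) and by 0.33 when SSN3 was deleted at 11 and 12 repeats. MED7 rose by 0.18 in rpb1-CTD11 (adjusted p = 4.9e-05) and by 0.11 in rpb1-CTD12, and fell by 0.19 and by 0.15 on deletion, the last of which turned to 0.096 on the spiked-in scale. Each of these values was larger in size than those of SSN8, SRB8 and SSN2 in the same comparison, a difference that was not tested.

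In the head, SRB4, which encodes Med17, fell by 0.31 (adjusted p = 0.0001) and by 0.26 (adjusted p = 0.00063) on deletion of SSN3, with a value of 0.035 at 12 repeats on the spiked-in scale. MED6 rose by 0.17 in rpb1-CTD11 (adjusted p = 0.0071) and SRB2, which encodes Med20, fell by 0.11 (adjusted p = 0.0037). SRB2 was higher by 0.15 (adjusted p = 0.0029) in rpb1-CTD12_cdk8del than in rpb1-CTD12. The head thus held members that moved in both directions.

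In the tail, PGD1, which encodes Med3, rose by 0.18 in rpb1-CTD11 (adjusted p = 0.0043), and SIN4, which encodes Med16, fell by 0.14 in rpb1-CTD11_cdk8del against rpb1-CTD11 (adjusted p = 0.0096) but stood at 0.072 on the spiked-in scale. Over the 21 core genes, deletion of SSN3 lowered 4 and raised none at 11 repeats (19% past the test, beside 38.6% of all probes), and raised 3 and lowered 3 at 12 repeats (28.6%, beside 32.4%). The medians were -0.080 and 0.017, beside 0.0095 and 0.0033 over all probes.

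**Figure D4:**
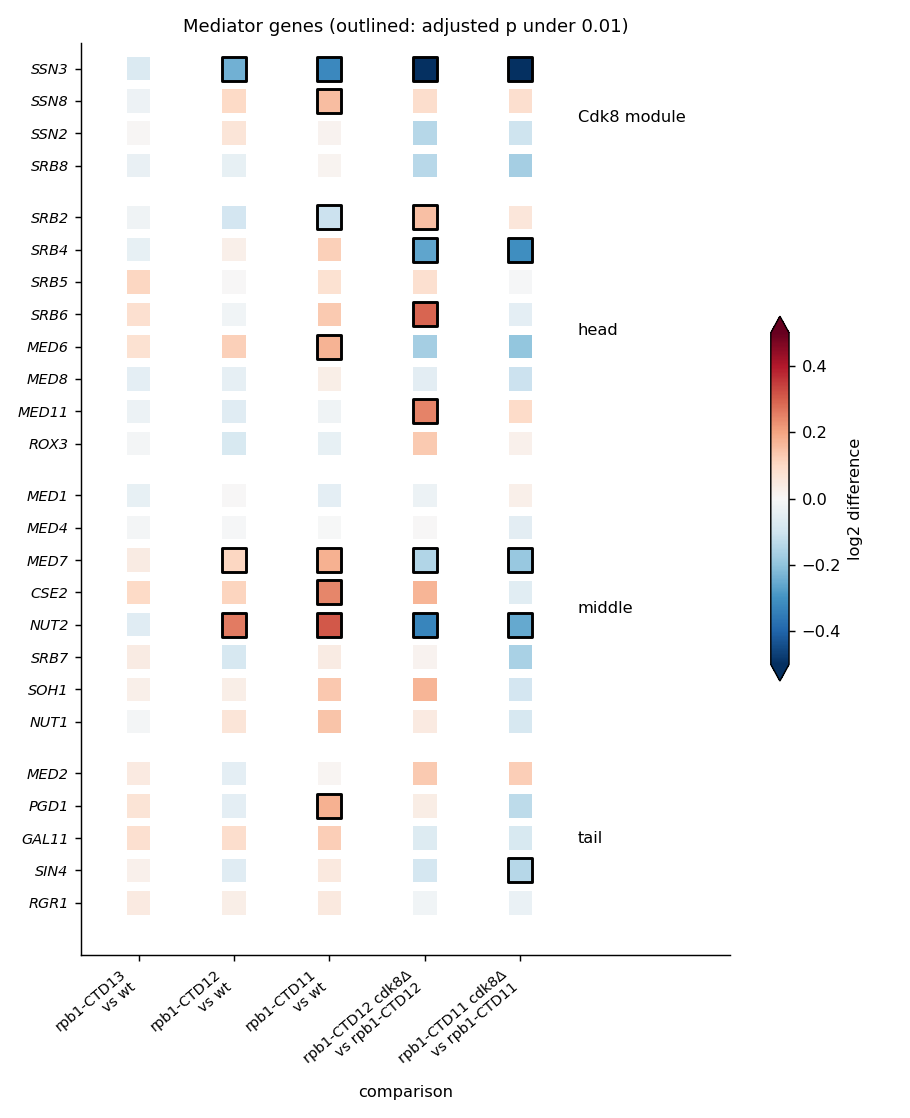
Log2 differences of the 4 kinase module genes and the 21 core Mediator genes in 5 comparisons: rpb1-CTD13, rpb1-CTD12 and rpb1-CTD11 against wt, and each deletion strain against its single mutant. Colours are capped at 0.5 in either direction and outlined squares passed the test. NUT2, MED7 and SRB4 are outlined in both deletion comparisons and SSN3 is beyond the cap.

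The other kinases of the RNAPII CTD were compared with the Cdk8 pair through 8 genes, the subunits of Kin28, Bur1 and Ctk1 kinases. Of these, 3 rose in rpb1-CTD11 against wt and none fell, while 3 fell and none rose in each deletion strain against its single mutant. These counts are 37.5% of the list, beside 49.1% of all probes in rpb1-CTD11 and 38.6% and 32.4% in the deletion comparisons. CTK3, a subunit of the Ctk1 kinase, rose by 0.43 in rpb1-CTD11 (SE 0.043, adjusted p = 8.9e-08) and by 0.25 in rpb1-CTD12, and fell by 0.43 and by 0.19 on deletion, where the value at 12 repeats was 0.058 on the spiked-in scale. BUR2, the cyclin partner of Bur1, rose by 0.23 in rpb1-CTD12 and fell by 0.37 (adjusted p = 0.00032) and by 0.40 on deletion. The gene of the Ctk1 kinase itself, CTK1, rose by 0.16 in rpb1-CTD11 (adjusted p = 0.0059).

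Of the cyclin genes named here, BUR2 fell in both deletion comparisons, while the fitted differences of SSN8 were positive and not past the test. Those of SSN8 were -0.0012 and 0.0008 with the strain in Cy3 and 0.17 and 0.18 in Cy5, so no opposite sign could be read from them. The transcript of SSN3 fell in rpb1-CTD11, whereas that of CTK1 rose. BUR2 and CTK1 were named for their low adjusted p, and the other cyclin and kinase genes of the list are not given.

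Known Cdk8 substrates, transcription factors and the tail subunit Med2, were listed as 7 genes, of which 28.6% passed in rpb1-CTD11 against wt and 42.9% and 28.6% in the deletion comparisons at 11 and 12 repeats, beside 49.1%, 38.6% and 32.4% of all probes. In rpb1-CTD11 against wt 2 fell, STE12, the factor of the mating and filamentation pathways, by 0.48 (adjusted p = 1.5e-06), and GAL4, the activator of galactose genes, by 0.14 (adjusted p = 0.0023). On deletion of SSN3, PHD1, a factor of filamentous growth, fell by 0.69 (SE 0.075, adjusted p = 4.6e-07) at 11 repeats and by 0.53 (adjusted p = 1.6e-05) at 12 repeats. GCN4, the activator of amino acid synthesis genes, fell by 0.31 (adjusted p = 0.0042) and by 0.42 (adjusted p = 0.0004), with a value of 0.10 at 11 repeats on the spiked-in scale. GAL4 rose by 0.17 at 11 repeats (adjusted p = 0.0042). None was called at 1.7-fold, and these values describe transcripts, not the proteins that the kinase acts on.

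Genes whose expression is linked to the screens that found the module were SUC2, FLO11, SPO13, SPO11 and HO. SUC2, which encodes the glucose-repressed invertase, was the 1 gene of the 5 called in any comparison. It fell by 0.77 on the log2 scale in rpb1-CTD11_cdk8del against rpb1-CTD11 (0.585-fold, SE 0.065, adjusted p = 1.6e-08), where 5.48% of all probes were called. At 12 repeats the difference was -0.72, just short of the fold threshold, and against wt-330rpm it was -0.74 and -0.55 in the 2 deletion strains. SUC2 did not differ past the test between either single mutant and wt, with differences of -0.017 in rpb1-CTD11 and 0.12 in rpb1-CTD12. Over the 5 genes, 2 fell past the test and none rose in each of these strains (40%, beside 49.1% and 36% of all probes), with lowest differences of -0.52 and -0.43. On deletion 1 rose and 1 fell at 11 repeats and 2 fell at 12 repeats (40% each, beside 38.6% and 32.4%). The lowest difference of the list in rpb1-CTD12_cdk8del against wt-330rpm was -0.615.

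The genes beside SSN3 on its chromosome were examined because the deletion replaces the gene with a marker. MRX11, next to SSN3 on one side, had no matched probe. VPS16, a subunit of vacuolar tethering complexes, did not pass the test in any comparison. NOP4, a ribosome assembly factor next to SSN3 on the other side, fell by 0.51 in rpb1-CTD11 against wt (SE 0.063, adjusted p = 1.5e-06) and by 0.27 in rpb1-CTD12 (adjusted p = 0.0017). On deletion of SSN3 its differences were 0.24 at 11 repeats (adjusted p = 0.016) and -0.026 at 12 repeats (adjusted p = 0.83). ISM1, the mitochondrial isoleucyl-tRNA synthetase gene, fell by 0.16 in rpb1-CTD11 (adjusted p = 0.00065) and had differences of 0.13 (adjusted p = 0.021) and -0.074 on deletion. No measured neighbour of SSN3 passed the test for the deletion itself at 11 or at 12 repeats.

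Over all 4 module genes, 12 of the 16 RefSeq genes in the 2 nearest places on each side had a probe. Of these 12, 8 passed in rpb1-CTD11 against wt, 5 in rpb1-CTD11_cdk8del against rpb1-CTD11 and 2 in rpb1-CTD12_cdk8del against rpb1-CTD12, where 49.1%, 38.6% and 32.4% of all probes passed. APT2, beside SSN2, was the 1 neighbour called, with a fall of 0.92 in rpb1-CTD12_cdk8del (adjusted p = 3.7e-08) and of 0.74 in rpb1-CTD11_cdk8del against their single mutants. It has a close relative in APT1, so its signal may be shared between both genes. SSN2 itself differed by -0.14 and -0.10 in these comparisons.

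**Figure D5:**
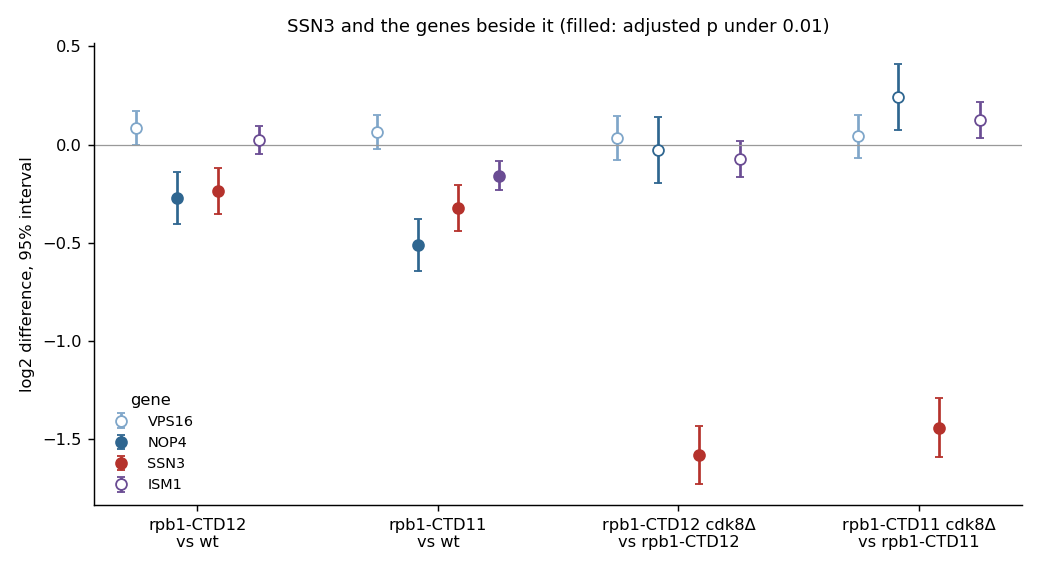
Log2 differences of SSN3 and its measured chromosomal neighbours VPS16, NOP4 and ISM1, with 95% confidence intervals. Filled points passed the test. NOP4 and ISM1 fall in rpb1-CTD11 against wt and no neighbour passes in the deletion comparisons, where SSN3 is at -1.44 and -1.58.

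The genes most like each module gene over the 9 fitted group levels were found among 5153 named probes above background in every group, by Pearson r and with no test. For SSN3 they were AAD15 (r = 0.99), POR2, SHM2, AAD3 and FMP41 (r = 0.99 each), all of which were low in both deletion strains. SHM2, the cytosolic serine hydroxymethyltransferase gene, differed by -1.11 and -0.88 on deletion at 11 and 12 repeats, and POR2, which encodes a mitochondrial porin, by -0.98 and -0.87. AAD15 and AAD3 belong to a family of near-identical genes and their probes may read several members. The likeness to SSN3 was set mainly by the 2 deletion groups.

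For SSN8 the nearest genes were MDH1, the mitochondrial malate dehydrogenase gene (r = 0.99), MRPS18, EDS1, ATG33 and ATG3. MDH1 varied on a larger scale, with differences of 0.61 in rpb1-CTD11 and 0.38 in rpb1-CTD12 against wt and of 0.27 and 0.38 on deletion. For SRB8 they were DLD2 (r = 0.98), ANT1, GLE1, ADE4 and OAR1, and ADE4, which encodes the first enzyme of purine synthesis, differed by -0.61 and -0.51 on deletion. For SSN2, which varied least, the likeness was weakest, with YDL109C (r = 0.92), PHO84, SEC14, CYK3 and APL1.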

How the data were processed

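RNA of 24 cultures or technical repeats was hybridised to two-colour spotted arrays against 1 pool of wild type RNA. The deposited scanner files hold the mean foreground and the local background intensity of each spot in both channels, as the authors' scanner software gave them, and these were used. The deposited series table holds the authors' log2 ratios per spot, made per the labels and methods with print-tip loess and a dye-bias correction, with no background subtraction. Set against the scanner values its columns correlated positively on every array (r = 0.67 to 0.95) and had medians of -0.0094 to 0.016, which settled its direction, and it served as an alternative. A further deposited matrix holds the authors' own log2 ratios and p-values per strain and was not used. The submitters' processing notes name limma 2.12.0. No genome build is given in the sources used here.

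Intensities were corrected with normexp (offset 50) and normalized within each array by loess (span 0.3, control spots at weight 0) in limma 3.58.1 under R 4.3.3. The 2 spots of a probe were averaged, and 1 fit was made of all 24 arrays with a coefficient for each of 9 groups and a dye term, followed by eBayes and Benjamini-Hochberg adjustment over 6388 gene probes. Of these, 5326 had a gene name, all matched to RefSeq symbols, and 1062 had none. The fit and its contrasts were checked on simulated log2 ratios, which did not cover the background correction or the normalization. Dye and array letter coincide (a with the strain in Cy3, b in Cy5), so the dye term is also the replicate block. The a minus b differences of the groups correlated at 0.62 to 0.93. The design text gives the opposite dye order to the labels, and the labels were followed. Under them the low SSN3 signal of the deletion strains fell in the strain's channel on all 4 arrays. The design text describes 2 independent cultures per strain, but wt arrays of 1 culture label may be technical repeats (wt pairs r = 0.41 to 0.90), so p-values measure the spread between arrays. The number of arrays limits the precision.

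The 4 genes and all lists were chosen with earlier results of these data known. Besides the 4 genes in every comparison, named genes were, for each list, those called in any comparison or otherwise the 2 with the lowest adjusted p in rpb1-CTD11 against wt and in rpb1-CTD11_cdk8del against rpb1-CTD11, all neighbours of SSN3, the 5 genes most like each module gene, and RPO21, LYS2, MET17 and OLI1 as strain checks. The gene lists were the Mediator head, middle and tail, the other CTD kinases, Cdk8 substrates, genes of the early screens and chromosomal neighbours. Alternatives changed the background correction, the normalization, the dye term, the wild type arrays used, the arrays in the fit, the filter on dim probes, the saturated spots, the control strain and the background threshold, and left out each array or wt culture label in turn.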

Additional observations from a re-analysis of the deposited data

How the results depend on the processing

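Over the 4 module genes and 15 comparisons, 539 of 644 values under other settings kept both their direction and their side of the threshold. The test was lost by 35, gained by 9 and 3 that were past it under one of the settings changed sign, while 58 changed sign with neither value past the test. With arrays left out, 1084 of 1140 kept both, 25 lost the test, 3 gained it and 28 changed sign with neither value past it. Many of these fits left out an array of a group outside the comparison, where the difference itself cannot change. The count that kept both is thus in part set by the design. SSN3 in the deletion strains passed under every setting and with every array left out. The cause of the changes below was not tested. The comparisons of the deletion strains with wt were put through these settings after seeing the data.

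The fall of SSN3 in rpb1-CTD11 against wt lost the test with median centring (-0.38), loess on the spiked-in controls (-0.29), no dye term, which is also the fit with no replicate block (-0.32), and wt-330rpm as control (-0.22). The fall in rpb1-CTD12 lost it with median centring (-0.22), the spiked-in loess (-0.19), no replicate block (-0.24), wt arrays averaged per culture label (-0.24) and wt-330rpm as control (-0.14). The rise of SSN8 in rpb1-CTD11 lost it with no background correction (0.15), median centring (0.12), the spiked-in loess (0.16), no replicate block, averaged wt arrays or only the compared arrays in the fit (0.15 each), and RPB1-CTDWT (0.18) or wt-330rpm (0.15) as control. SSN8 in rpb1-CTD11_cdk8del against wt-330rpm lost it with the spiked-in loess (0.061) and no replicate block (0.24).

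SSN8 gained the test in rpb1-CTD12 against wt with print-tip loess (0.13), in rpb1-CTD12 against rpb1-CTD13 with the spiked-in loess (0.54), and in rpb1-CTD12_cdk8del with the authors' series table (0.16) and with wt as control (0.19). With wt as control, SRB8 also gained it in rpb1-CTD11_cdk8del (-0.15) and rpb1-CTD12_cdk8del (-0.18). In rpb1-CTD13 against wt the spiked-in loess put SSN3 at -0.49, SSN8 at -0.40 and SRB8 at -0.57, all past the test, and turned SSN2 to -0.52, where the median of all probes stood at -0.54. It also turned SIN4 (0.072) and GCN4 (0.10) at 11 repeats and SRB4 (0.035), MED7 (0.096) and CTK3 (0.058) at 12 repeats in the deletion comparisons. With the background at percentile 95 the SSN3 probe was above it in the deletion strains, and the ratios of 3.16 for rpb1-CTD12 and 3.26 for wt-330rpm over rpb1-CTD12_cdk8del are then ratios of channel means, not bounds.

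Against wt, SRB8 in rpb1-CTD11_cdk8del lost the test with no background correction, no replicate block or only the compared arrays (-0.15 each), averaged wt arrays (-0.16), median centring (-0.15), print-tip loess (-0.032) and the authors' series table (-0.046), and turned to 0.011 with the spiked-in loess. In rpb1-CTD12_cdk8del it lost it with median centring (-0.17), print-tip loess (-0.049), the series table (-0.073) and no replicate block (-0.18), and turned to 0.095 with the spiked-in loess. SSN8 against wt lost it with the spiked-in loess (0.32 and 0.37 at 11 and 12 repeats), with no replicate block (0.24 and 0.19) and, at 12 repeats, with median centring (0.18).

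With 1 array or culture label left out, SSN8 in rpb1-CTD11 against wt ran from 0.11 to 0.20, SSN3 in rpb1-CTD12 against wt from -0.25 to -0.22, SSN8 against wt-330rpm from 0.18 to 0.29 in rpb1-CTD11_cdk8del and from 0.12 to 0.25 in rpb1-CTD12_cdk8del, and SSN3 in rpb1-CTD12 against rpb1-CTD13 from -0.18 to -0.15. SSN8 in rpb1-CTD12_cdk8del passed without replicate 1 of that strain, and SSN3 in rpb1-CTD12 against rpb1-CTD13 without either rpb1-CTD11_cdk8del array. Against wt, SRB8 ran from -0.16 to -0.14 in rpb1-CTD11_cdk8del and from -0.21 to -0.15 in rpb1-CTD12_cdk8del, and SSN8 from 0.19 to 0.29 and from 0.12 to 0.25.

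Over all probes, the spiked-in loess lowered the number past the test from 3139 to 340 in rpb1-CTD11 against wt, from 2299 to 89 in rpb1-CTD12, from 2466 to 369 and from 2067 to 320 in the deletion comparisons at 11 and 12 repeats, and raised it from 374 to 5064 in rpb1-CTD13, which gave 91 with no dye term. It also lowered wt-330rpm against wt from 285 to 18, the deletion strains against wt-330rpm from 1816 to 237 and from 1713 to 168, and the difference of the deletion responses from 146 to 5. With wt as control these deletion strains gave 2968 and 3107, and 590 and 899 with the spiked-in loess. Another control moved rpb1-CTD20 from 24 to between 6 and 235 and RPB1-CTDWT from 9 to 167, against 5 with median centring. rpb1-CTD11 against rpb1-CTD12 fell from 496 to 0 with the compared arrays alone, and rpb1-CTD12 against rpb1-CTD13 from 1521 to 401 with no dye term. The dim SSN3 probe gives only a bound in the deletion strains.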
